A study of Mus musculus with 6 samples.

Results

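The clustered replication-dependent histone genes supply the bulk of the histone protein that packages new DNA in each S phase. Probes of mouse promoter arrays belong to this set where the array annotation gives them a gene name starting with Hist1h, Hist2h, Hist3h or Hist4h, also as one partner of a divergent promoter. The rule found 61 of 16562 named genes and used no measured value. They hold 1013 of 474380 genomic probes, 133 on the first array of the set and 880 on the second. The set has 6 linker histone H1 genes, 15 H2A, 17 H2B, 11 H3 and 12 H4 genes. R1 is a mouse embryonic stem cell line, and all cells were undifferentiated and grown feeder-free in knockout serum replacement with leukemia inhibitory factor. Chromatin was immunoprecipitated with an antibody raised against a linker fragment of human SMAD1 (called SMAD1/5), of SMAD2 or of SMAD4. Each immunoprecipitate (IP) was labelled with Cy5 and hybridised against its own whole cell extract DNA, the input, labelled with Cy3, on 2 arrays that hold different probes. The groups are therefore SMAD1/5 IP against its input, SMAD2 IP against its input and SMAD4 IP against its input, with 1 biological replicate each, no dye swap and no IP without a specific antibody. No RNA was measured, so the cell type could not be checked against markers. Titles and sample types label the SMAD2 arrays as Smad2, while the protocol text of those samples names a Smad1/5 antibody, so their label rests on the titles.

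Histone genes of this class lie in clusters, lack introns, and give mRNAs that end in a stem-loop in place of a poly(A) tail. Many H2A and H2B genes stand head to head and share a short promoter, in which a TATA box, CCAAT boxes and, for H2B, an octamer bound by OCT1 are classical elements. SMAD1 and SMAD5 act downstream of BMP receptors, SMAD2 downstream of Activin, Nodal and TGF-beta receptors, and SMAD4 partners both branches. SMAD proteins bind short DNA elements that contain CAGAC, and GC-rich elements such as GGCGCC.

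Of the 61 genes, 60 matched the RefSeq gene table through an accession and 1 through its older symbol, and 55 had a promoter sequence in the RefSeq set of build GRCm38.p6. The first run below is the whole stretch between the starts of Hist1h2ba and Hist1h2aa (now H2bc1 and H2ac1), the divergent H2A and H2B pair with the most probes. It spans chr13:23934157-23934436 and reads towards Hist1h2aa. The second is the 250 bases upstream of Hist1h1c (H1f2, chr13:23738557-23738806, plus strand), the linker histone gene with the most probes. The third is the 250 bases upstream of Hist1h2af (H2ac10, chr13:23533625-23533874, plus strand), whose promoter held one of the lowest SMAD2 windows described below. Capitals mark the TATA box TATAAA, the CCAAT box, the octamer ATGCAAAT, the SMAD core CAGAC or the BMP-type site GGCGCC on either strand. None of these motifs contains another.
Hist1h2ba-Hist1h2aa: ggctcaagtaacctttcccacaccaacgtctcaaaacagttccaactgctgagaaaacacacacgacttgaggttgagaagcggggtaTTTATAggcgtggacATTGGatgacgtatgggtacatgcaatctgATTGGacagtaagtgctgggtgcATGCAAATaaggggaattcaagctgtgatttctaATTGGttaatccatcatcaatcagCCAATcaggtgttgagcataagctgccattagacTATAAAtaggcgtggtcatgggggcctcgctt
Hist1h1c: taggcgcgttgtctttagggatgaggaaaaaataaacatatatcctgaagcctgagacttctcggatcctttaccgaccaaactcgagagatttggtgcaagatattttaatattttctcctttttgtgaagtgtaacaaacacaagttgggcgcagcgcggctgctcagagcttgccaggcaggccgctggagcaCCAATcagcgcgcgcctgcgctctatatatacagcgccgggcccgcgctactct
Hist1h2af: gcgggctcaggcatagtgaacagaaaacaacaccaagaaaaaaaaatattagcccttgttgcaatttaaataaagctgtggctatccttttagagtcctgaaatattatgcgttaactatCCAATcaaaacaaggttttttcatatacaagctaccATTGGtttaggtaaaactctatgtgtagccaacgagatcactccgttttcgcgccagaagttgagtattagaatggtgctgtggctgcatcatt
The shared promoter holds 2 TATAAA, 4 CCAAT and 1 octamer match, the Hist1h1c run 1 CCAAT match and the Hist1h2af run 2 CCAAT matches. None of the 3 runs holds CAGAC or GGCGCC. Genome positions of these runs are of GRCm38.p6, and probe positions below are those of the array annotation, with the build not given in the sources used here.

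Over the 250 bases upstream of all 55 histone starts, CCAAT was found in 45 promoters, or 81.8%, against 33.8% of 32851 RefSeq promoters. It was present in every H1, H2A and H2B promoter (6, 15 and 14) and in 3 of 11 H4 promoters. TATAAA was found in 50.9% of the histone promoters and 12.4% of all promoters. The octamer lay in 23.6% of the histone promoters, 7 of them H2A and 6 of them H2B, against 1.6% of all. The SMAD core CAGAC was present in 40.0% of the histone promoters and 42.2% of all promoters, with 7 of 9 H3 promoters and 1 of 6 H1 promoters. GGCGCC was present in 9.09% of the histone promoters and 9.59% of all. Paired H2A and H2B genes share part of their upstream bases, so these promoters are not independent, and a match is a description of letters. The histone promoters had a median GC content of 44.4%, against 52.4% for all promoters.

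Values below are log2 of processed IP over processed input, centred on each array's median over genomic probes, so that all probes have a median of 0. With SMAD1/5 the histone probes had a median log2 ratio of 0.43 (order-statistic 95% interval 0.31 to 0.55). With SMAD2 the median was -0.09 (-0.13 to -0.02), and with SMAD4 it was -0.20 (-0.27 to -0.12). These intervals, and the exact binomial ones, cover counting error over probes of single arrays, and neighbouring probes are not independent. With 1 replicate there is no test of a difference between antibodies or between histone and other probes.

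A probe at least 2-fold over input has a log2 ratio of 1 or more. With SMAD1/5, 341 of 1012 histone probes passed that level, or 33.7% (exact interval 30.8% to 36.7%), against 27.5% of all probes, and 21.8% were at least 2-fold under input, against 31% of all. With SMAD2, 14.6% of the histone probes were over (12.5% to 17.0%), against 12.7% of all, and 17.6% were under, against 13.5% of all. With SMAD4, 12.4% of the histone probes were over (10.5% to 14.6%), against 16.5% of all, and 14.1% were under, against 10.1% of all. The SMAD1/5 arrays scatter most, with an SD of single histone probes of 1.74, against 1.00 for SMAD2 and 0.97 for SMAD4. With normexp background correction the SMAD1/5 median of the histone probes was -0.01 and the SMAD2 median 0.33, so both signs changed. The normexp setting starts from mean signals and leaves out the detrending and dye normalisation of the processed signals. Which step changed the signs was not tested. With normexp the SMAD1/5 share over input was 8.70% for histone probes against 9.54% for all probes. With the input trend removed it was 20.5% against 20.1%, so its excess was not seen with those settings. With SMAD1/5 the 133 probes of array 1 had a median of 0.69 and the 879 of array 2 one of 0.37. The array 1 probes are those of Hist2 and Hist4, and the array 2 probes those of Hist1 and Hist3. Array and locus therefore cannot be told apart, and array 2 does not repeat array 1. On array 1 the Hist4 probes had -0.16.

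The single channels show where these ratios lie. Each channel is given as log2 minus its own array median, so the difference of 2 channel medians need not equal the median ratio. With SMAD1/5 the histone probes had a median IP level of -0.07 and a median input level of -0.32. With SMAD2 both the IP and the input were at -0.50. With SMAD4 the IP was at -0.33 and the input at -0.15. The median of all histone probes was thus below the array median in both channels with every antibody, for the SMAD1/5 IP only slightly. This did not hold at every locus. With SMAD4 the Hist1 probes had an IP level of -0.48 and an input level of -0.24. The Hist2 probes had 0.17 and 0.19 there, the Hist3 probes 0.35 and 0.11, and the Hist4 probes 0.06 and -0.21. Hist2 and Hist4 were measured on array 1 only, and Hist1 and Hist3 on array 2 only.

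Probe length moved with both channels. Of the histone probes 67.0% were 60 bases long, the longest on the array, against 41.5% of all probes. Over all probes of 60 bases the median ratio was 0.24 with SMAD1/5, -0.13 with SMAD2 and -0.11 with SMAD4. The 60-base histone probes had 0.43, -0.14 and -0.23 with SMAD1/5, SMAD2 and SMAD4. The histone probes under 60 bases had 0.43 with SMAD1/5, 0.09 with SMAD2 and -0.15 with SMAD4, against -0.17, 0.08 and 0.06 for all probes of that class. Within each length class the SMAD2 median of the histone probes was thus within 0.01 of that of all probes. The part of probe length in the values was not tested.

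**Figure D1:**
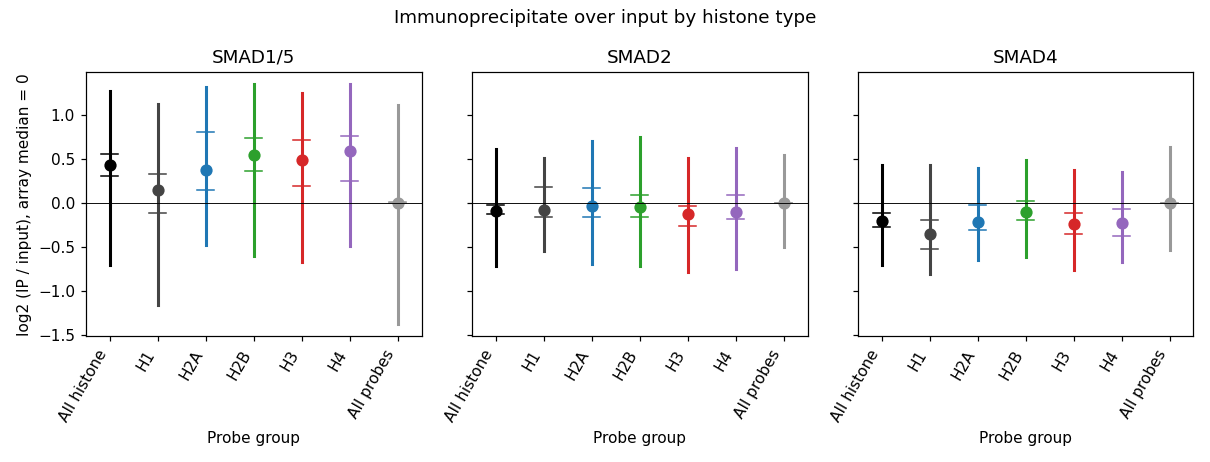
Log2 IP over input (vertical axis, array median at 0) for all histone probes, each histone type and all probes, 1 panel per antibody. Points are medians, horizontal ticks the 95% interval of the median, vertical bars the quartiles. The medians of all 5 types lie above 0 with SMAD1/5, from 0.15 for H1 to 0.59 for H4. With SMAD2 and SMAD4 they lie below 0, and each median is within the quartiles of all probes. The interval spans 0 for H1 with SMAD1/5, for every type except H3 with SMAD2, and for H2B with SMAD4. With normexp background, the SMAD2 types lie above 0 and H1, H2A and H3 below 0 with SMAD1/5.

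By histone type, the median log2 ratio with SMAD1/5 was 0.15 for H1, 0.37 for H2A, 0.55 for H2B, 0.49 for H3 and 0.59 for H4. The interval reached below 0 for H1 (-0.12 to 0.32). With SMAD2 the types lay between -0.12 for H3 and -0.04 for H2A, and with SMAD4 between -0.35 for H1 and -0.10 for H2B. The SMAD2 interval reached above 0 for every type except H3 (-0.26 to -0.03). With SMAD4 it did so for H2B only (-0.20 to 0.03). With normexp background all 5 types were above 0 with SMAD2, from 0.22 for H4 to 0.52 for H1, and H1, H2A and H3 were at -0.12, -0.0147 and -0.0019 with SMAD1/5. Against the mean input of the 3 antibodies H2B, H3 and H4 were above 0 with SMAD4. The quartiles of each type overlapped those of every other type with all 3 antibodies.

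Gene medians were taken for the 53 histone genes with at least 3 probes. With SMAD1/5, 43 of them were above 0 and 10 below, or 81.1% above, where 51.1% of 16400 genes were. Gene medians of at least 2-fold over input were found for 11 of 53 with SMAD1/5, or 20.8%, against 3.26% of all genes, and 1 was at least 2-fold under, against 6.69% of all. With SMAD2, 21 were above 0, or 39.6%, against 50.4% of all genes. With that antibody 3 were at least 2-fold over, against 0.0793% of all genes, and 2 were at least 2-fold under, against 0.238%. With SMAD4, 13 were above 0 and 40 below, or 24.5% above, against 48.6% of all genes. With SMAD4 0 were at least 2-fold over, against 0.329%, and 1 was at least 2-fold under, against 0.183%. No replicate allows a test of these counts. Of the 3 SMAD2 genes over input, Hist1h3c and Hist1h2bb are the same 6 probes.

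The SMAD1/5 count depends on the processing. It was 0 of 53 with normexp correction, 0 with the authors' values, 0 once the trend on the input was removed, and 2 against the mean input of the 3 antibodies. With those settings 0.183%, 0.0732%, 0.896% and 0.854% of all genes passed. It was 9 of 52 with bright probes only, against 4.75% of all genes, and 9 of 53 with the own chromosome median, against 2.81%. Over all genes, those with fewer probes passed more often. By number of probes, 26.7% of 15 histone genes with 3 to 9 probes and 30% of 10 with 10 to 19 probes passed, against 9.61% and 6.15% of all such genes. Of 21 histone genes with 20 to 29 probes 14.3% passed, against 3.46% of all such genes, and of 7 with 30 or more 14.3% passed, against 1.64%. The SMAD2 count of 3 was 5 with normexp (against 2.60% of all genes) and 1 with the authors' values (against 0.0244%). It was 1 of 50 with bright probes only (against 0.0428%) and 0 with the mean input (against 0%) or the trend removed (against 0.0366%). With normexp 39 of 53 genes were above 0 with SMAD2. Against the mean input 29 of 53 were above 0 with SMAD4, so the majority below 0 turned there. In that setting 1 was at least 2-fold over, where 0.104% of all genes were. The share of all genes above 0 is not given for these settings. Several genes also share probes, so the counts are of names and not of independent loci.

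**Figure D2:**
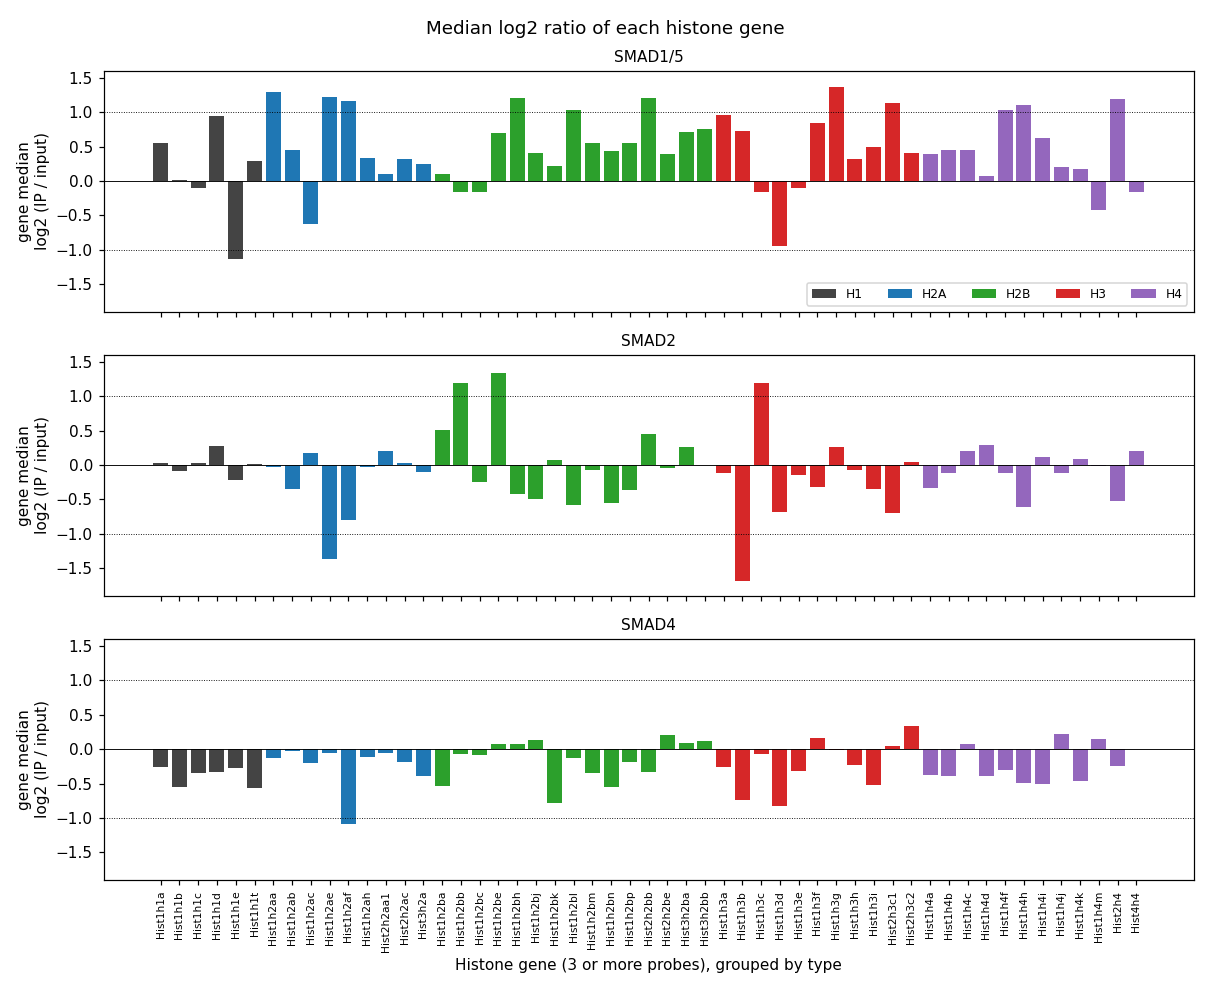
Median log2 IP over input of each of the 53 histone genes with 3 or more probes (vertical axis, 1 panel per antibody), coloured by histone type. Dotted lines mark 2-fold. With SMAD1/5 43 bars stand above 0 and 11 reach the upper line, while with SMAD4 40 bars stand below 0 and none reaches the upper line.

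Linker histones bind nucleosomes at the entry and exit of DNA and compact chromatin, and Hist1h1t encodes the form made in the testis. With SMAD1/5 the gene medians of log2 ratio were 0.55 for Hist1h1a, 0.02 for Hist1h1b, -0.10 for Hist1h1c, 0.95 for Hist1h1d, -1.13 for Hist1h1e and 0.29 for Hist1h1t. Hist1h1e was the lowest of all 53 genes with that antibody and Hist1h1d the highest linker gene. With SMAD2 the same 6 genes lay between -0.22 for Hist1h1e and 0.28 for Hist1h1d. With SMAD4 none of the 6 was above 0, and they ran from -0.57 for Hist1h1t to -0.25 for Hist1h1a. All 6 medians with SMAD2 and SMAD4 lay inside 2-fold.

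Upstream of Hist1h1e a window had a mean ratio below 0 with all 3 antibodies, and was among the 3 lowest histone windows with SMAD4 only. A window of 4 probes at chr13:22990017-22990582, centred at -1811 bp from the start (negative is upstream), had a mean log2 ratio of -1.14 with SMAD1/5, -1.06 with SMAD2 and -1.55 ± 0.30 with SMAD4 (SD over 4 probes). Its IP levels were -3.54, -2.30 and -3.17 and its input levels -1.96, -1.31 and -1.52 for SMAD1/5, SMAD2 and SMAD4. IP and input were thus both dim there on every array, with the IP dimmer. Of 1003 histone probes measured on all arrays, 5 were at least 2-fold under input with all 3 antibodies, or 0.498% against 0.559% of all probes, and 3 of these 5 lay in the Hist1h1e promoter. Hist1h1c held one of the lowest SMAD1/5 windows, at -846 bp from its start and chr13:23103306-23104239, with a mean of -3.68 ± 1.28 (SD, 5 probes). There the SMAD1/5 IP was at 0.21 and its input at 4.33, and the inputs of SMAD2 and SMAD4 were at -1.40 and -1.83.

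H2A and H2B form the dimers that flank the H3 and H4 tetramer in a nucleosome. Among H2A genes the highest SMAD1/5 gene median was that of Hist1h2aa, which encodes a testis form, at 1.30 (16 probes), and the lowest that of Hist1h2ac at -0.63 (8 probes). Hist1h2aa had -0.02 with SMAD2 and -0.12 with SMAD4. With SMAD2, Hist2h2aa1 was highest at 0.20 and Hist1h2ae lowest at -1.37, on 3 probes. With SMAD4, no H2A gene was above 0: Hist1h2ab was highest at -0.02 and Hist1h2af lowest at -1.08.

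Hist1h2af gave different signs with the antibodies, at 1.16 with SMAD1/5, -0.80 with SMAD2 and -1.08 with SMAD4 over 10 probes. A window of 3 probes over the start of the promoter printed above, centred at -19 bp (chr13:22899483-22899906 of the array annotation), had a mean log2 ratio of 1.88 with SMAD1/5, -1.79 ± 0.77 with SMAD2 (SD, 3 probes) and -0.92 with SMAD4. The IP levels were 0.08, -1.14 and -1.20, and the input levels -1.35, 0.58 and -0.17 in the same order of antibodies. The inputs, which are whole cell extract in all 3 cases, spanned a wider range than the IPs. A second window close by, at chr13:22897555-22898072, was among the lowest with SMAD4 at -1.44 ± 0.80 (SD, 4 probes), and nearest to the start of Hist1h4h.

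Among H2B genes the highest SMAD1/5 median was that of Hist1h2bh at 1.21, on 3 probes, and the lowest that of Hist1h2bc at -0.17 on 41 probes. With SMAD2, Hist1h2be was highest at 1.33 on 16 probes and Hist1h2bl lowest at -0.58. With SMAD4, Hist2h2be was highest at 0.20 and Hist1h2bk lowest at -0.79. Hist1h2be carried the highest SMAD2 window of all histone genes, at chr13:22986955-22987800 and centred at -513 bp. Its 6 probes had log2 ratios of 2.46, 2.30, 0.85, 2.79, 1.55 and 0.59, a mean of 1.76 ± 0.90 (SD). The SMAD2 IP was at 0.16 there and the SMAD2 input at -1.66. The same window had a ratio of 1.12 with SMAD1/5 and 0.03 with SMAD4.

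The SMAD4 window downstream of Hist1h2ba, at chr13:23295243-23295685, was the lowest among histone genes with that antibody at -1.57 ± 0.45 (SD, 4 probes). Hist1h2bl, at the other end of the cluster, held the lowest SMAD2 window, at -1.83 ± 0.79 (SD, 4 probes). It lay 2091 bp downstream of the start and in the downstream class.

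Among H3 genes, which encode the replication-coupled forms of H3, Hist1h3g had the highest SMAD1/5 median at 1.37 (7 probes), the highest of all 53 genes, and Hist1h3d the lowest at -0.94 (4 probes). Hist1h3g was at 0.27 with SMAD2 and -0.01 with SMAD4. With SMAD2, Hist1h3c was highest at 1.20, on 6 probes that are all shared with Hist1h2bb, and Hist1h3b lowest at -1.68 on 5 probes, the lowest of the 53 genes with SMAD2. With SMAD4, Hist2h3c2 was highest at 0.34 and Hist1h3d lowest at -0.83. Hist1h3h has 100 probes, which the annotation spreads over both large blocks of the Hist1 cluster, so its name cannot stand for 1 gene. Its probes had medians of 0.32, -0.07 and -0.23 with SMAD1/5, SMAD2 and SMAD4, and without them the histone medians were 0.44, -0.10 and -0.20.

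H4 pairs with H3 in the core of the nucleosome, and its genes encode nearly always the same protein. Hist2h4 had the highest SMAD1/5 median among them at 1.19 (28 probes) and Hist1h4m the lowest at -0.42 (9 probes). With SMAD2 they ran from -0.61 for Hist1h4h to 0.30 for Hist1h4d, and with SMAD4 from -0.51 for Hist1h4i to 0.22 for Hist1h4j. No H4 gene reached 2-fold in either direction with SMAD2 or SMAD4.

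Windows were called where the mean over probes within 500 bp (3 or more) had a z of at least 4. Here z is the distance from the array's median window in robust SDs. That SD was taken from the windows below the median only, so it does not measure the spread above it. With SMAD4, 1 of 53 histone genes had an enriched window, against 2.51% of all genes, and 0 had a low one, against 0.0492%. With SMAD1/5, 0 had an enriched window, against 0% of all genes, and 1 had a low one, against 2.61%. An enriched SMAD1/5 window needed a mean of at least 4.61 for array 1 probes and 4.17 for array 2 probes. The highest single histone probe with that antibody reached only 3.80, in Hist1h2bl. No histone window could therefore be called enriched with SMAD1/5, and this 0 cannot tell whether enrichment was absent. With SMAD2, 0 had either, against 0.0677% and 0.345% of all genes. At a z of at least 2 the count was 14 of 53 with SMAD4 (26.4%, against 40.1% of all genes), 6 with SMAD2 (11.3%, against 18.4%) and 2 with SMAD1/5 (3.77%, against 6%). The histone genes have a median of 20 probes and all genes 28, and the part of probe number in these shares was not tested. A window at a z of -2 or under was found for 9 histone genes with SMAD1/5 (17.0%, against 32.3% of all genes), 20 with SMAD2 (37.7%, against 30.1%) and 13 with SMAD4 (24.5%, against 18.3%).

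The enriched SMAD4 window was that of Hist1h4j, at chr13:21098408-21098910, in the promoter class and centred at -2321 bp from the start, with a z of 4.15. Its 4 probes had log2 ratios of 1.81, 2.91, 1.96 and 2.81 with SMAD4, a mean of 2.37 ± 0.57 (SD). The SMAD4 IP levels of these probes were 1.15, -0.20, -0.21 and -0.01, and the input levels -0.57, -3.01, -2.07 and -2.73. All 4 inputs lay below the array median, and 3 of the 4 IP levels lay slightly below it too. Against the mean of the other antibodies' arrays the SMAD4 IP differed by 0.22 and the SMAD4 input by -1.98. With SMAD1/5 the same window had a mean ratio of 0.52 and with SMAD2 of 0.01. The call was kept with bright probes only and with the own chromosome median, and not with the other 4 alternatives.

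The low SMAD1/5 window was that of Hist1h4k, at chr13:21114188-21114896, 1885 bp downstream of the start and in the downstream class, with a z of -4.19. Its 5 log2 ratios were -4.57, -3.06, -4.65, -5.26 and -5.21, a mean of -4.55 ± 0.89 (SD). The input levels of these probes were 2.45, 5.81, 6.52, 5.56 and 6.39, and the IP levels -2.56, 2.30, 1.42, -0.14 and 0.73. On the SMAD2 and SMAD4 arrays the inputs were at -1.11 and -0.97 there. The SMAD1/5 input was 6.39 above the mean of the other 2 inputs and the IP 1.42 above. The call was kept with 4 alternatives and not with the mean input or with the input trend removed. Hist1h4c, at -5220 bp from its start, had a SMAD1/5 window mean of -4.19 ± 1.73 (SD, 4 probes) at a z of -3.85, with the IP at -1.27 and the input at 3.36.

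**Figure D3:**
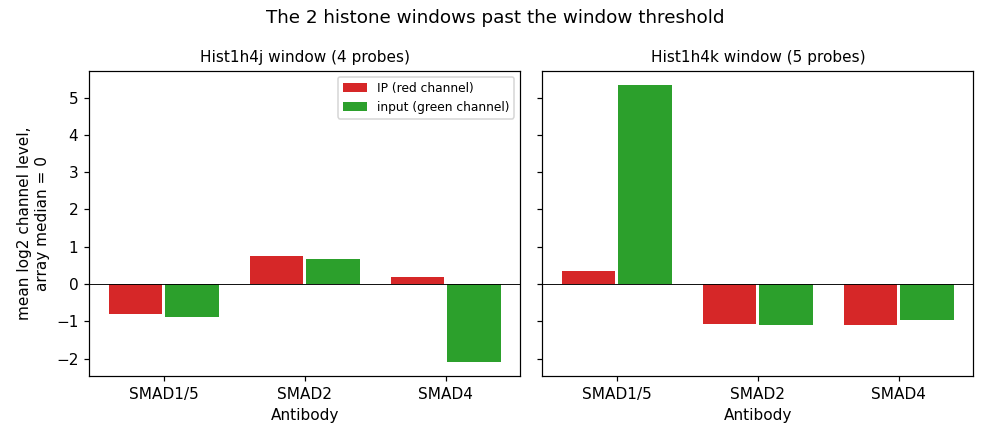
Mean log2 level of the IP (red) and of the input (green), each against its array median, for the Hist1h4j and Hist1h4k windows with each antibody. In the Hist1h4j window the SMAD4 input stands at -2.09 beside an IP of 0.18, and in the Hist1h4k window the SMAD1/5 input stands at 5.35 beside an IP of 0.35.

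The other high windows were lower in z. With SMAD1/5 they were that of Hist1h2bc at 2.31 ± 0.21 (SD, 3 probes, z 2.25), that of Hist2h3c2 at 2.31 ± 0.77 (4 probes, z 2.08) and that of Hist1h3g at 1.99 ± 0.76 (4 probes, z 1.95). With SMAD2 they were those of Hist1h2ab at 1.62 ± 0.83 and Hist3h2ba at 1.51 ± 1.59 (3 probes each). With SMAD4 they were that of Hist1h2bj at 1.69 ± 0.70 (3 probes) and that of Hist1h1e at 1.66 ± 1.34 (6 probes), the second 464 bp inside the start of Hist1h2be. In the Hist1h2ab, Hist3h2ba, Hist1h2bj and Hist1h1e windows the antibody's input minus the mean of the other inputs ran from -1.71 to -1.14, while its IP minus the mean of the other IPs ran from -0.23 to 0.44. In the 3 SMAD1/5 windows that difference of the IPs was larger, at 1.26 for Hist1h2bc, 1.36 for Hist2h3c2 and 0.95 for Hist1h3g, and that of the inputs was -0.95, 0.01 and -0.37.

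Divergent promoters hold 102 of the histone probes in 17 pairs, 10 of them H2A with H2B. Their median log2 ratio minus that of the 911 other histone probes was 0.34 with SMAD1/5, 0.14 with SMAD2 and -0.03 with SMAD4. The same difference over all probes was 0.07, -0.01 and -0.07. The SMAD1/5 difference was 0.04 with normexp, as over all probes (0.04), 0.10 with the authors' values and 0.12 with the input trend removed. The SMAD2 difference was -0.12 with normexp and -0.01 against the mean input. The SMAD4 difference was above 0 with 4 alternatives, up to 0.17. With SMAD1/5, 45.1% of divergent histone probes were at least 2-fold over input (exact interval 35.2% to 55.3%), against 32.4% of the other histone probes (29.4% to 35.6%). Over all probes the shares were 28.6% of divergent and 27.5% of single-gene ones. The 2 intervals overlap narrowly, and they do not count the dependence between neighbours.

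The 10 H2A and H2B pairs have only 16 probes, all between -122 and -4 bp from a start. Their median ratio was 0.37 with SMAD1/5, 0.04 with SMAD2 and -0.33 with SMAD4. The 3 probes annotated to the promoter shared by Hist1h2ba and Hist1h2aa, the pair of the first sequence above, had ratios of -0.06, 3.25 and 2.59 with SMAD1/5. The same probes had 0.98, 2.31 and 0.06 with SMAD2 and 0.90, 0.49 and -0.26 with SMAD4. At the probe with the highest SMAD1/5 and SMAD2 ratios the IP levels were 0.64 and 0.12 and the input levels -2.16 and -2.25. The longer tiled pairs were Hist2h4 with Hist2h3c1 (20 probes; 1.19 with SMAD1/5, -0.72 with SMAD2 and 0.05 with SMAD4) and Hist1h4f with Hist1h1d (19 probes; 1.04, -0.11 and -0.31). The SMAD1/5 ratios of single probes ranged from -3.19 to 2.87 in the first and from -3.74 to 3.15 in the second, so these medians stand within a wide spread. The 20 probes annotated to both starts of Hist2h2aa1 had medians of 0.09 with SMAD1/5, 0.20 with SMAD2 and -0.05 with SMAD4, so the tiled pairs did not share one level.

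**Figure D4:**
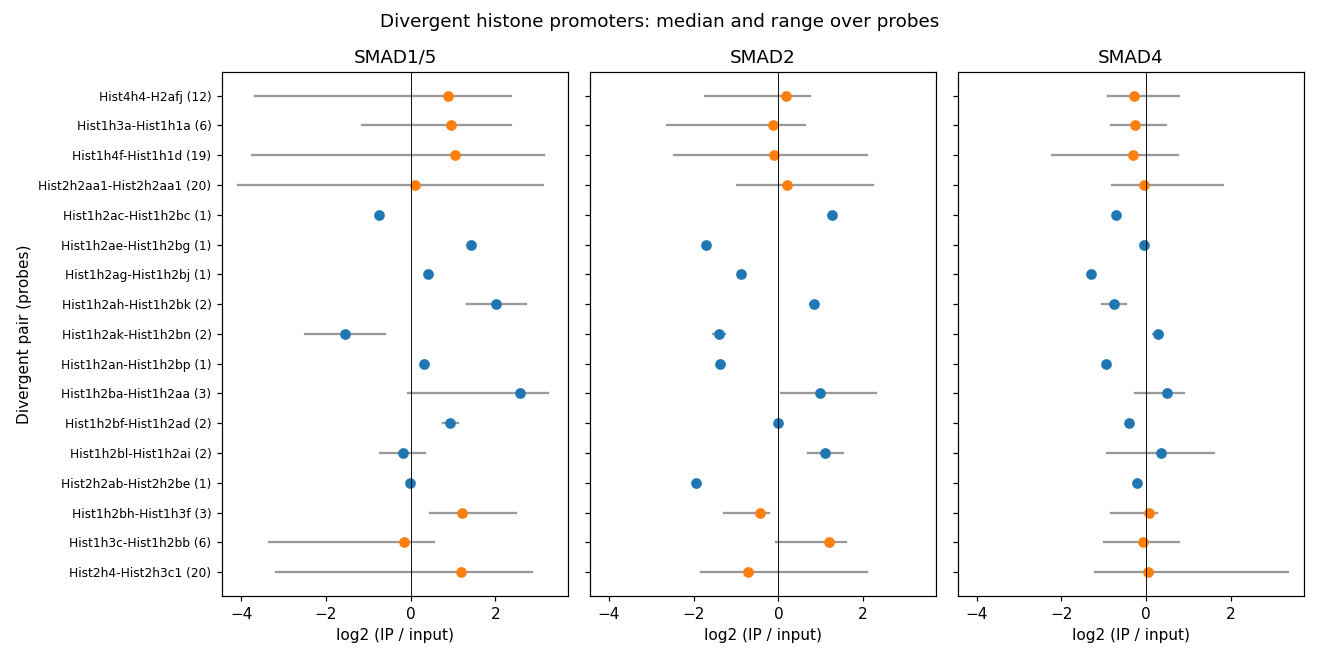
Median (point) and range over probes (grey line) of log2 IP over input for each of the 17 divergent histone pairs, with the number of probes in brackets, 1 panel per antibody. H2A and H2B pairs are blue and other pairs orange. The Hist1h2ba and Hist1h2aa pair is the highest with SMAD1/5 at 2.59, and the 4 pairs with 12 or more probes span 0 with every antibody.

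Histone probes were grouped by distance from the nearest histone start listed in the annotation. In the 500 bp upstream, 105 histone probes had a median SMAD1/5 ratio of 0.52, against -0.34 for all probes at that distance from their own starts. The IP was at -0.35 for histone probes and 0.19 for all probes there, and the input at -0.72 and 0.44. In the first 500 bp inside, the ratio was -0.26 for 52 histone probes and -0.57 for all probes. With SMAD4 the ratios were -0.39 and -0.49 in these upstream and inside bins for histone probes, against -0.11 and -0.05 for all probes. With SMAD2 they were -0.04 and 0.07, against 0.02 and 0.05. Over the upstream bin 71.4% of the histone probes and 26.3% of all probes were 60 bases long, and the part of probe length in this bin was not tested.

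**Figure D5:**
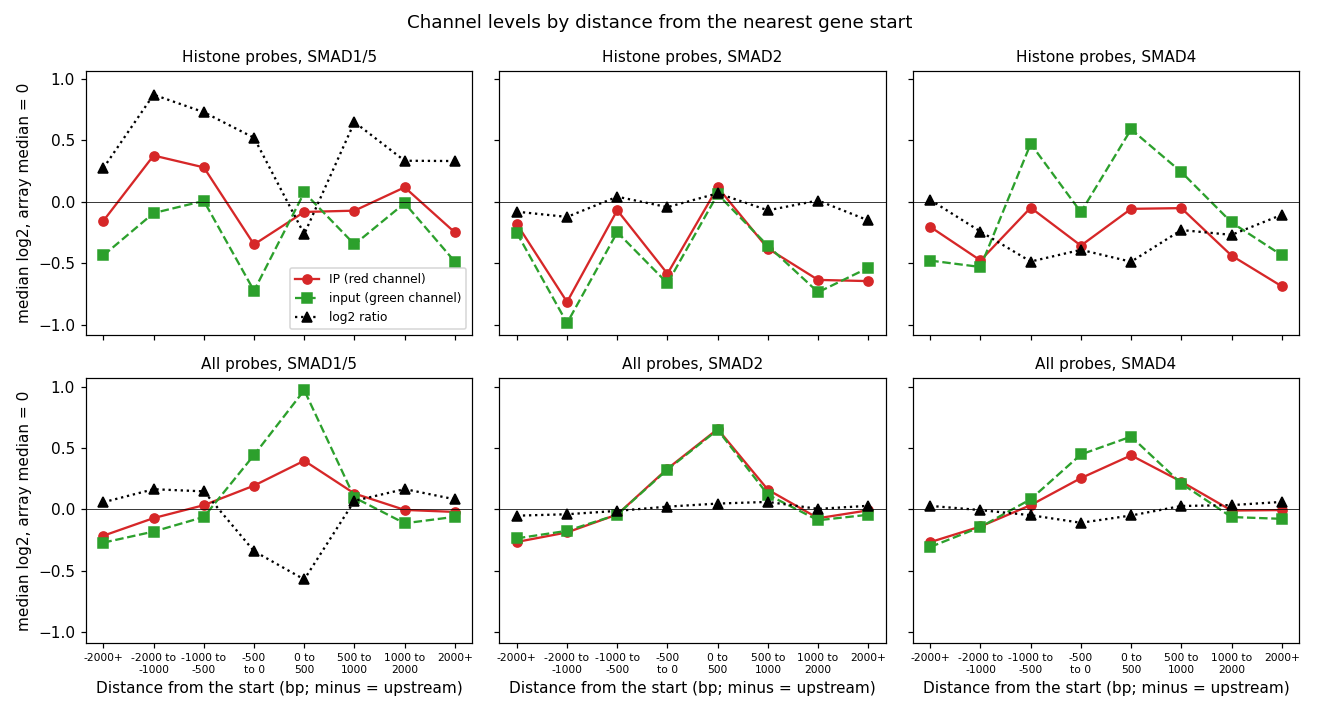
Median log2 level of IP, input and their ratio (vertical axis, array median at 0) by distance from the nearest start in 8 bins, for histone probes (top) and all probes (bottom). Over all probes both channels peak just inside the start, at 0.40 for the SMAD1/5 IP and 0.97 for its input, while the SMAD1/5 IP of the histone probes is highest in the bin next to the farthest upstream one, at 0.38.

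Most histone probes are far from any histone start: the median distance to the nearest one was 1495 bp and 158 of 1013 lay within 500 bp. The annotation lists 2 or more histone starts for 920 probes, and for 190 the nearest histone start belongs to another gene than the one named. The array files hold no probe sequences, and these genes have near-identical coding regions, so hybridisation of one gene's DNA to another gene's probe could not be assessed and single gene values inside coding regions are uncertain.

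By locus, the 4 stretches of the Hist1 cluster on chromosome 13 gave SMAD1/5 medians of 0.34, 0.37, 0.33 and 0.48. They hold 13, 5, 30 and 2 genes, at chr13:21077124-21196904, chr13:21396589-21414044, chr13:22891615-23133266 and chr13:23294741-23305356. Their SMAD4 medians were -0.32, -0.17, -0.27 and -0.40. The 839 other probes between the first and last Hist1 probe had medians of 0.00 with SMAD1/5, -0.11 with SMAD2 and -0.02 with SMAD4, with 66.7% of them 60 bases long. The 812 Hist1 probes had 0.35, -0.11 and -0.28 with SMAD1/5, SMAD2 and SMAD4. All probes of chromosome 13 had 0.06, -0.05 and -0.05.

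Outside Hist1 the Hist2 genes lie at chr3:96090954-96144183 (111 probes), the Hist3 genes at chr11:59020554-59038105 (68 probes) and Hist4h4 at chr6:136827024-136832897 (22 probes). Hist2 and Hist4 are on array 1 and Hist1 and Hist3 on array 2, so between these sets locus and array cannot be told apart. The Hist2 probes had a median of 0.77 with SMAD1/5, -0.01 with SMAD2 and -0.09 with SMAD4, against 0.08, -0.03 and -0.04 on all of chromosome 3. Among Hist2 genes with 3 or more probes the SMAD1/5 gene medians were 0.09 for Hist2h2aa1, 0.32 for Hist2h2ac, 1.21 for Hist2h2bb, 0.39 for Hist2h2be, 1.13 for Hist2h3c1, 0.41 for Hist2h3c2 and 1.19 for Hist2h4. Hist2h3c1 and Hist2h4 share their 20 divergent probes. Hist2h3c1 and Hist2h4 had -0.70 and -0.53 with SMAD2.

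The Hist3 probes had 0.70 with SMAD1/5, where all probes of chromosome 11 had 0.28, and 0.08 with both SMAD2 and SMAD4. Hist3h2a had 0.25, Hist3h2ba 0.71 and Hist3h2bb 0.75 with SMAD1/5. Hist4h4, a single H4 gene that stands beside the H2A variant gene H2afj, had -0.16 with SMAD1/5, 0.21 with SMAD2 and 0.00 with SMAD4.

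The 3 antibodies agreed little in ratio at the same histone probes. Pearson's r of the log2 ratio across histone probes was 0.03 for SMAD1/5 with SMAD2 (1003 probes), -0.00 for SMAD1/5 with SMAD4 (1012) and 0.09 for SMAD2 with SMAD4 (1004). The same pairs had 0.40, 0.42 and 0.74 for the IP and 0.27, 0.21 and 0.39 for the input. Over all probes the IP correlations were 0.60, 0.63 and 0.80 and the input correlations 0.48, 0.41 and 0.54. The points share probe sequence, and with it length and base composition, across arrays. The ratio correlated with its own input at -0.62 with SMAD1/5, -0.55 with SMAD2 and -0.55 with SMAD4, and with its own IP at 0.31, 0.17 and 0.17. A ratio contains both channels, so these values are descriptions. Of 1003 histone probes, 9 were at least 2-fold over input with all 3 antibodies, or 0.897% against 1.08% of all probes. In all 9 the input lay below the array median with every antibody.

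Genes of related function were measured on the same arrays. Of 12 genes listed as replication-independent variants, 11 were measured. Their gene medians had a median of -0.39 with SMAD1/5, -0.09 with SMAD2 and -0.04 with SMAD4, and 1 of 11 was at least 2-fold over input with SMAD1/5, where 3.26% of all genes were, and 0 with the others. H2afx, the variant phosphorylated at DNA breaks, was at 1.22 with SMAD1/5, H2afj at 0.89, H2afz at 0.72 and H1f0 at -0.40 (0.61 with SMAD4). Of the 22 H2afj probes, 12 are the divergent ones shared with Hist4h4, so its value is not independent of the histone probes.

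The machinery of histone gene expression had 13 of 17 listed names measured, of which 0 reached 2-fold over input with any antibody, at median values of 0.02 with SMAD1/5, 0.09 with SMAD2 and -0.11 with SMAD4. Slbp, which binds the stem-loop of histone mRNAs, was at 0.83, 0.12 and -0.37 with SMAD1/5, SMAD2 and SMAD4. Lsm11, part of the U7 particle that processes these mRNAs, was at 0.69 with SMAD1/5, and Thex1, an exonuclease that trims and degrades them, at 0.46. Cpsf3, the endonuclease of the cleavage, was at 0.57. The histone chaperones had 12 of 13 listed genes measured, 2 of them at least 2-fold over input with SMAD1/5, where 3.26% of all genes were, and 0 with SMAD2 or SMAD4. A low SMAD1/5 window was found for 1 of the 12, against 2.61% of all genes. The 2 chaperone genes over input were Nasp, which carries H1 and H3 with H4, at 1.11, and Hat1, which acetylates new H4, at 1.01. Asf1a, which hands on H3 and H4, was at 0.61 and the importin Ipo4 at 0.39. The list's median was 0.17 with SMAD1/5, 0.01 with SMAD2 and -0.04 with SMAD4.

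For comparison of whole gene classes, probes of the ribosomal protein genes had median ratios of 0.13 with SMAD1/5, 0.04 with SMAD2 and -0.11 with SMAD4. Probes of the genes for olfactory receptors, which work in olfactory neurons, had -0.29, -0.18 and -0.17. Their input levels were -0.89, -1.13 and -1.41, and 79.9% of their probes were 60 bases long. The SMAD1/5 value of the histone probes thus lay above both classes and the SMAD4 value below both, without a test.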

How the data were processed

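ChIP-chip was measured with 3 antibodies on 6 Agilent arrays, grouped by title. Each spot has a deposited intensity for both dyes, which Agilent Feature Extraction background-subtracted, detrended and dye-normalised, per the file headers (version 9.1.3.1 with a copy number protocol for SMAD1/5 and SMAD2, 9.5.3.1 with a ChIP protocol for SMAD4). Software version and the SMAD4 antibody cannot be told apart. Other deposited columns are flags for outlying, saturated or dim spots, per the file headers. Log2 values that the authors deposited were made with limma per the submitters' processing notes, with scale and centring not stated. Their column medians were 0.07 and -0.02 (SMAD1/5), 0.04 and 0.03 (SMAD2) and -0.01 and -0.01 (SMAD4), and they correlated at 0.74 to 0.95 with the scanner ratio, which gives the direction IP over input. They were used as an alternative.

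Spots with an outlier flag were left out, which removed 1 histone probe with SMAD1/5 and 9 with SMAD2, and saturated ones kept (0 were histone probes). Log2 ratios were centred on each array's median without loess. The input was well above background at 82.6% of histone probes with SMAD1/5, 81.6% with SMAD2 and 99.7% with SMAD4, and the number of arrays limits the precision. Windows, thresholds and the 6 alternatives are those named in the text. An enriched window also needed 2 probes above the 95th percentile, and a low window the reverse. The window rule was run on simulated ratios with independent normal noise and planted sites. Log2 ratios of neighbouring histone probes within 300 bp correlated at 0.38 with SMAD1/5, 0.40 with SMAD2 and 0.44 with SMAD4. The simulation therefore gives no error rate for the windows of these arrays. Numpy 2.4.6, pandas 2.3.3, scipy 1.17.1 and limma 3.58.1 in R 4.3.3 were used, the last for normexp with an offset of 50. Normexp was run on the mean signals and the local background, not on the processed signals. The input trend was taken in 50 bins.

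Genes named are the highest and lowest of each histone type per antibody, those with 1 of the 3 highest or lowest windows, all Hist1h1 genes, all genes outside Hist1, and up to 4 genes of each list with the highest median. The members and lists were chosen with earlier results of these data known. Where RefSeq gave a gene 2 promoters, the first was used.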

Additional observations from a re-analysis of the deposited data

Results flagged for a closer look

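The sign of the median log2 ratio differed between antibodies for the same histone probes, and the difference between antibodies was not tested, since each has 1 replicate. Over all histone probes the median was 0.43 with SMAD1/5, -0.0947 with SMAD2 and -0.20 with SMAD4. The Hist1 cluster had 0.35 with SMAD1/5, -0.11 with SMAD2 and -0.28 with SMAD4. Among the core histones, the H2A probes had 0.37 with SMAD1/5 and -0.22 with SMAD4. The H3 probes had 0.49 with SMAD1/5, -0.12 with SMAD2 and -0.24 with SMAD4, and the H4 probes had 0.59 with SMAD1/5 and -0.23 with SMAD4. These are medians over probes, and single probes of each type lay on both sides of 0 with every antibody.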

How the results depend on the processing

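Each result was recomputed with 6 alternatives, and with Hist1h3h left out, an alternative chosen after seeing the data, as were the gene median counts given in the report. No paired analysis was possible because each antibody has 1 replicate, and no replicate could be left out. Where a result moved or changed sign, the cause was not tested. With normexp background the histone median was -0.0067 for SMAD1/5 and 0.33 for SMAD2. The share of histone probes at least 2-fold over input was then 8.70% for SMAD1/5, 29.8% for SMAD2 and 5.92% for SMAD4 (all probes 9.54%, 15.9% and 8.44%), the share under it 3.95%, 12.1% and 6.61% (all probes 5.93%, 17.3% and 4.19%), and the SMAD2 divergent minus single difference -0.12. The SMAD2 difference was also below 0 against the mean input, at -0.0113. The SMAD4 difference of -0.03 was above 0 with normexp (0.0866), the authors' values (0.0769), the mean input (0.1697) and the trend removed (0.1687). Normexp also gave medians of -0.0147 for H2A and -0.0019 for H3 with SMAD1/5 and 0.34 for H3 with SMAD2. With the authors' values the SMAD1/5 median was 0.12 and the SMAD2 median -0.13, with 11.96%, 9.66% and 7.70% of probes over for SMAD1/5, SMAD2 and SMAD4 (all probes 9.60%, 8.37% and 11.2%), and 11.9% under for SMAD1/5 (all 16.9%). With bright probes only SMAD2 had a median of -0.17, 11.1% over and 20.4% under (all 10.8% and 14.9%). Against the mean input of the 3 antibodies SMAD1/5 had 29.01% over and 17.2% under (all 21.8% and 22.8%), SMAD2 a median of -0.21, 5.88% over and 20.2% under (all 8.61% and 14.3%), and SMAD4 a median of -0.0114 and 17.05% under (all 16.7%), with 0.0331 for H3 and 0.030 for H4. With the input trend removed the medians were 0.11, -0.20 and -0.28 for SMAD1/5, SMAD2 and SMAD4, the shares over 20.5%, 6.27% and 5.43% (all 20.1%, 7.18% and 9.33%), and 16.5% were under for SMAD4 (all 11.3%). Histone genes with a called window, 2 in the report, numbered 7 with normexp, 5 with the authors' values, 1 with the mean input and 1 with the trend removed. The 7 with normexp were 4 enriched and 3 low SMAD1/5 windows. Over all genes, 845 had an enriched and 2735 a low SMAD1/5 window with normexp, against 0 and 424 of 16255 in the report's setting. With the authors' values 4 histone genes had a low SMAD1/5 window and 1 a low SMAD2 window, where 1257 and 114 of all genes did. The mean input gave 1 low SMAD2 window, where 507 of all genes had one. The trend removed gave 1 low SMAD4 window, where 295 of all genes had one. Signal limits the ratios where the input was not well above background, which held for more histone probes with SMAD1/5 and SMAD2 than with SMAD4.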
